A study of Gasterosteus aculeatus with 79 samples.

Results

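The diencephalon of male threespined sticklebacks (Gasterosteus aculeatus) at the start of the hatching of their brood was compared with that of males without a nest. The comparison used the 10 diencephalon libraries labelled as hatched and 9 a.m. (5 early hatching fathers, males 13, 16, 29, 58 and 64) or as no clutch, control and 9 a.m. (5 controls, males 7, 39, 41, 69 and 74), of 79 libraries in the series. Early hatching fathers were sampled at 9 a.m. on day 5 after fertilization, when the first eggs hatched, and controls were reproductively mature males with no nest and no eggs, taken at the same hour. All were wild-caught adults of one freshwater population, kept singly, and each gave 1 diencephalon library and 1 telencephalon library. Controls differed from fathers in nest, mating and eggs as well as in hatching, so that the contrast does not isolate hatching. Early hatching fathers were also set against males with eggs on day 4 and males with a nest and no eggs, both sampled at 9 a.m. Males at mid hatching (1 p.m.) and at late hatching (5 p.m., when all eggs had hatched), each with nestless controls of their own hour, served for the course over stages.

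In sticklebacks the male alone builds the nest, fans the eggs and guards the fry. The diencephalon holds the hypothalamus, preoptic area and thalamus, and lies against the pituitary, the gland that secretes prolactin and growth hormone. Brain-derived neurotrophic factor (bdnf) is a secreted growth factor that acts through TrkB receptors, and its transcription is driven by neuronal activity in mammals. PACAP, the product of adcyap1a, is a neuropeptide that raises cyclic AMP in its target cells. Immediate early genes such as fos and egr2a encode factors that are transcribed within minutes of neuronal stimulation.

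Gene counts ranged from 16025932 to 32519149 per library in early hatching fathers and from 17371983 to 22782480 in controls. Levels are given as CPM, counts scaled to a common library total after TMM scaling, and fold changes are early hatching over control on the log2 scale. All 10 libraries correlated more closely with the other diencephalon libraries (median Spearman's rho 0.977 to 0.982) than with telencephalon libraries (0.937 to 0.945). Of 29 diencephalon marker symbols only pomca had an identifier, which the pituitary shares, so that the region was checked by this correlation alone. The lane and index labels of early hatching libraries were not shared with any of the controls, so that lane, index and group cannot be told apart. Each of the 10 libraries came from a separate male. For comparisons within the diencephalon, edgeR's p-values rest on the spread between males within all 8 diencephalon groups (39 libraries), not within these 10 libraries alone. In bulk tissue, fewer cells of a type and less RNA per cell cannot be told apart, and summed markers of the pituitary and other tissues, given further on, differed between males.

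Of 18609 genes tested by edgeR's quasi-likelihood test, 0 (0%) passed an adjusted p of 0.01 between early hatching fathers and controls, and 0 passed 0.05. At an unadjusted p under 0.05, 659 genes (3.54%) were higher and 511 (2.75%) were lower in early hatching fathers, 1170 in all (6.29%). The 5 early hatching fathers lay above all 5 controls at 161 genes (0.865%) and below all of them at 108 (0.58%), 269 in all (1.45%). The lowest adjusted p in edgeR's quasi-likelihood test was 0.0734, for bdnf and for an unnamed gene, ENSGACG00000014008. With edgeR's likelihood ratio test, 2 genes (0.0107%) passed 0.01, bdnf and ENSGACG00000014008, and with DESeq2 4 genes (0.0215%) passed, those 2 with the cone opsin opn1sw1 and the unnamed ENSGACG00000018668. The last 3 of these rested on high counts in a few control males, which are described with each gene. A symbol was paired with 652 of the 18609 tested genes (3.50%), through the study's own supplementary gene tables, which hold genes selected in these libraries, so that the named genes are not a random sample of the transcriptome. Of these 652, 31 were higher and 27 lower at an unadjusted p under 0.05.

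**Figure D1:**
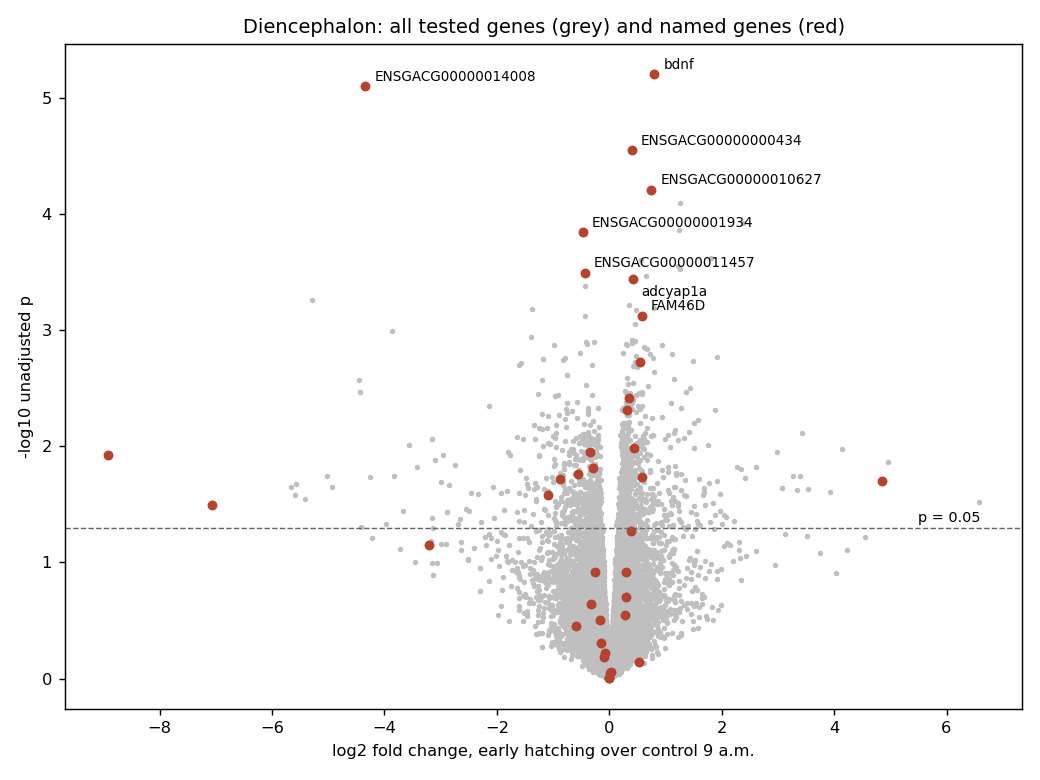
Log2 fold change, early hatching over control 9 a.m. (horizontal axis), against −log10 of the unadjusted p of edgeR's quasi-likelihood test (vertical axis) for the 18609 tested genes in the diencephalon (grey) and the 38 genes chosen for naming (red). The gene bdnf stands highest at a log2 fold change of 0.80, and the dashed line marks an unadjusted p of 0.05.

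The gene with a symbol that had the lowest p was bdnf. Its level was 36.6, 40.2, 38.5, 40.3 and 38.9 CPM in early hatching fathers 13, 16, 29, 58 and 64, against 23.5, 21.2, 28.7, 18.9 and 19.3 CPM in controls 7, 39, 41, 69 and 74. The groups did not overlap, and the early hatching fathers spanned a narrow range. The log2 fold change was 0.80 ± 0.15 (SE; 95% interval 0.49 to 1.11), a 1.74-fold higher level in early hatching fathers, with an unadjusted p of 6.2e-06 and an adjusted p of 0.0734 in edgeR's quasi-likelihood test, so that bdnf did not pass the threshold of 0.01. With adjustment over the same genes it passed in edgeR's likelihood ratio test (adjusted p = 0.00363) and in DESeq2 (adjusted p = 0.00113). Over 21 alternative settings its log2 fold change lay between 0.75 and 0.91, with an adjusted p between 0.00113 and 0.976. The early hatching fathers, from 36.6 to 40.3 CPM, also lay above all 14 diencephalon controls of the 3 times of day, from 18.9 to 33.3 CPM.

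The level of bdnf in males at other stages placed the mean of early hatching fathers between those of the egg and nest stages. Diencephalon levels of bdnf averaged 41.7 ± 11.3 CPM in males with a nest, 36.1 ± 6.23 CPM in males with eggs, 38.9 ± 1.49 CPM at early hatching, 30.7 ± 3.54 CPM at mid hatching and 31.0 ± 3.56 CPM at late hatching (SD, n = 5 each). The controls averaged 22.31 ± 4.004 CPM at 9 a.m., 27.7 ± 3.26 CPM at 1 p.m. (n = 4) and 27.4 ± 4.84 CPM at 5 p.m. (SD, n = 5 at 9 a.m. and 5 p.m.). Early hatching fathers had the smallest SD for bdnf of the 8 groups. Each stage against the controls of its own hour gave a log2 fold change in bdnf of 0.90 for nest, 0.69 for eggs, 0.80 for early hatching, 0.15 for mid hatching and 0.18 for late hatching. The first 3 of these share the same 5 controls, and the nest value was the one that passed 0.01 (adjusted p = 0.00391, edgeR). Against males with eggs, bdnf at early hatching differed by 0.11 on the log2 scale (95% interval −0.19 to 0.41), and against males with a nest by −0.10 (−0.40 to 0.20), neither beyond the spread between males. The change in bdnf at early hatching minus that at late hatching was 0.62 (unadjusted p = 0.0057, adjusted p = 0.227, edgeR), which did not pass adjustment.

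The PACAP gene adcyap1a was 53.7, 65.4, 65.2, 67.9 and 63.8 CPM in early hatching fathers 13, 16, 29, 58 and 64, against 47.8, 47.7, 51.5, 44.8 and 45.1 CPM in the controls in the order above. The groups did not overlap, although father 13 stood close to control 41. The log2 fold change of adcyap1a was 0.41 ± 0.10 (SE), with an unadjusted p of 0.000364 and an adjusted p of 0.452 in edgeR's quasi-likelihood test. Against its own controls adcyap1a gave log2 fold changes of 0.40 at nest, 0.53 at eggs, 0.41 at early hatching, 0.12 at mid hatching and 0.18 at late hatching. The change in adcyap1a at early hatching minus that at late hatching was 0.23 (unadjusted p = 0.124, adjusted p = 0.495, edgeR), not beyond the spread between males. With 31 symbols in the list of neurotrophin and PACAP genes, only bdnf and adcyap1a had identifiers, and their receptors were not matched and are not analysed here.

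**Figure D2:**
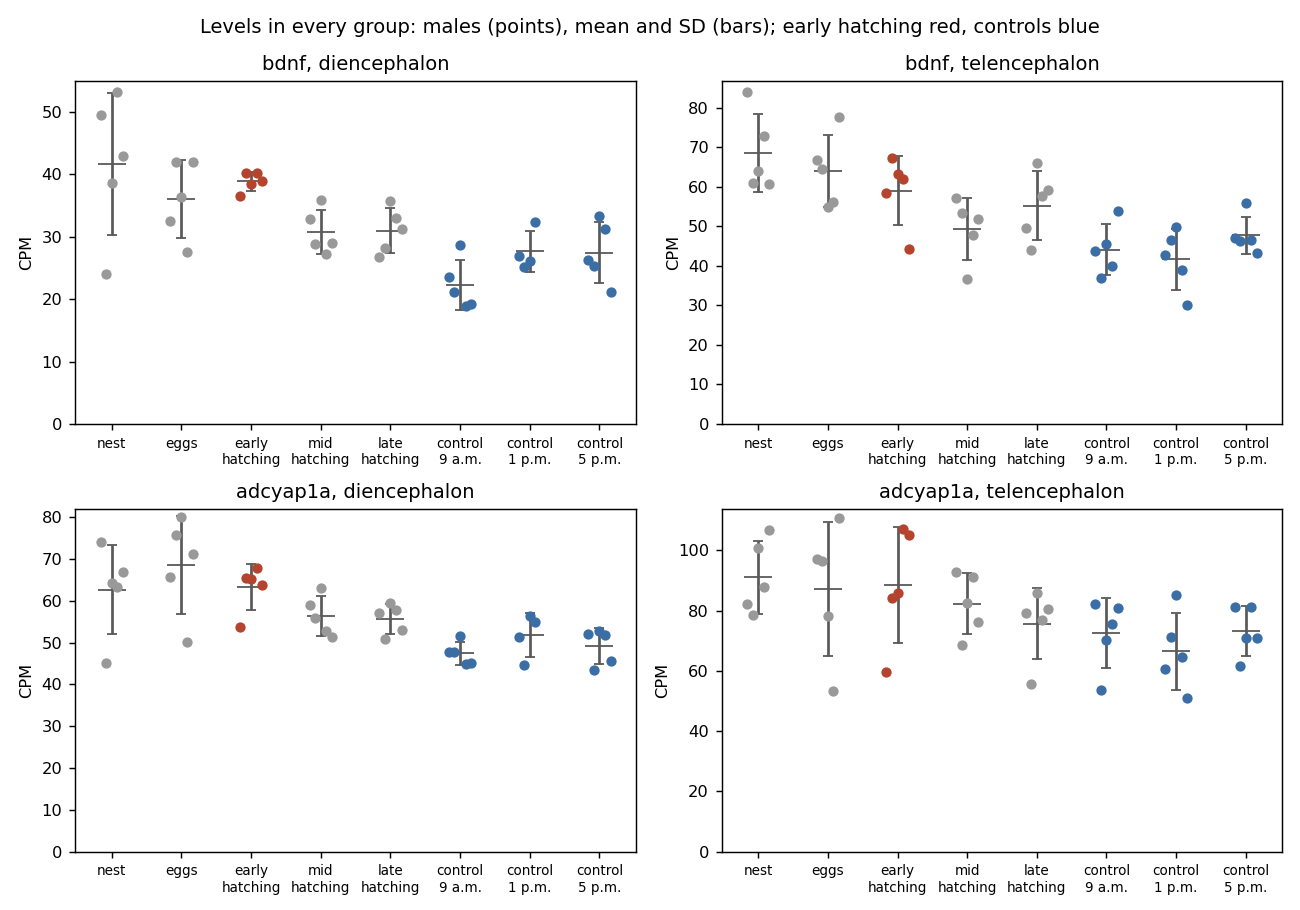
Level in CPM (vertical axis) of bdnf and adcyap1a in the diencephalon and telencephalon of each male (points) by group, with the mean and SD (bars; n = 5 males, 4 in the diencephalon of control 1 p.m.). Early hatching fathers are red, controls blue and males at other stages grey, and in the diencephalon all 5 early hatching fathers lie above every control male for bdnf, at 36.6 to 40.3 CPM.

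In the telencephalon of the same males, bdnf averaged 59.1 ± 8.82 CPM in early hatching fathers and 44.1 ± 6.48 CPM in controls (SD, n = 5 each). The telencephalon log2 fold change was 0.42, with an adjusted p of 0.151 in edgeR. The change in diencephalon minus that in telencephalon was 0.38 on the log2 scale for bdnf, at an unadjusted p of 0.0687, or 0.0319 with the male as a block (log2 difference 0.40). Neither passed adjustment (adjusted p = 1 and 0.934, edgeR). For adcyap1a the telencephalon log2 fold change was 0.29 (adjusted p = 0.383, edgeR) and the difference between regions 0.13 (unadjusted p = 0.506).

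Parental care candidates and hypothalamic neuropeptides were almost unmatched, so that galanin, isotocin, vasotocin and the sex steroid receptors are not analysed here. Of 37 parental care symbols only prl, prolactin, had an identifier. Its level ranged from 4.54 to 294.7 CPM in early hatching fathers and from 1.63 to 433.6 CPM in controls, with a log2 fold change of 0.00 ± 1.61 (SE). Of 65 neuropeptide symbols, npy and pomca were matched. The appetite peptide npy ranged from 7.32 to 10.5 CPM in early hatching fathers and from 6.34 to 11.6 CPM in controls, with a log2 fold change of 0.24 and an unadjusted p of 0.328. The melanocortin precursor pomca followed the pituitary genes given further on. No member of the lists of hormone receptors or of monoamine genes had an identifier.

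Of 12 immediate early and activity-related genes that were tested (67 symbols listed), 3 were higher and 0 lower in early hatching fathers at an unadjusted p under 0.05, beside 3.54% and 2.75% of all genes. The list's median log2 fold change was 0.30, against −0.00 for all tested genes. The 12 had symbols only through the study's gene tables, so that all tested genes are not a matched background. Of the 652 tested genes with a symbol, 31 were higher and 27 lower at that p. The 3 were plk2b, scg2a and nab2, and none of the 12 had groups that did not overlap. The kinase gene plk2b, whose product acts at synapses after activity in mammals, was 71.7, 54.5, 67.2, 56.8 and 75.2 CPM in early hatching fathers 13, 16, 29, 58 and 64, against 46.2, 49.6, 59.0, 51.6 and 42.2 CPM in controls 7, 39, 41, 69 and 74. Fathers 13, 29 and 64 lay above every control and fathers 16 and 58 within the upper part of the control range. The log2 fold change of plk2b was 0.39 ± 0.14 (SE; unadjusted p = 0.00718, adjusted p = 0.734, edgeR). The granin gene scg2a, a precursor of secreted peptides, ranged from 80.1 to 126.9 CPM in early hatching fathers and from 70.8 to 93.3 CPM in controls, with father 13 lowest of the fathers, and a log2 fold change of 0.39 (unadjusted p = 0.0123). The repressor of EGR factors nab2 ranged from 9.06 to 15.4 CPM in early hatching fathers and from 6.47 to 13.4 CPM in controls, a log2 fold change of 0.47 (unadjusted p = 0.0415). Without early hatching males 29 and 64, or without control males 7 and 69, 1 of the 12 remained at an unadjusted p under 0.05, scg2a without males 29 and 64 (unadjusted p = 0.0234, edgeR) and plk2b without males 7 and 69 (unadjusted p = 0.0284, edgeR).

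None of the transcription factors of the list reached an unadjusted p under 0.05. The log2 fold change was 0.22 for fos, 0.44 for egr2a, −0.03 for npas4a, 0.38 for NR4A1 and 0.02 for atf3, with unadjusted p from 0.146 to 0.97. The level of fos was 12.1 to 21.7 CPM in early hatching fathers and 6.76 to 16.7 CPM in controls, with father 13 highest and control 7 lowest. The phosphatase gene dusp5, which inactivates ERK kinases, ranged from 32.5 to 54.4 CPM in early hatching fathers and from 24.9 to 37.0 CPM in controls, with a log2 fold change of 0.39 at an unadjusted p of 0.0532.

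Against the same 5 controls, males with a nest had 4 of the 12 higher and 0 lower (8.08% and 7.42% of all genes), and males with eggs 1 higher and 0 lower (8.42% and 8.89%). Early hatching against nest had 0 of the 12 at that p in either direction by edgeR, with a median of 0.01. Of all genes, 2.5% were higher and 3.21% lower in that contrast. Early hatching against eggs had 1 of the 12 higher, nab2, and 0 lower (3.78% and 4.18% of all genes). With 12 genes, both counts lie near the shares over all genes.

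The same 12 genes were also examined with the start of hatching set against its end. They were matched through the study's gene tables, so that the shares over all genes given here are not a matched background. The share over genes with a symbol is not given for this contrast. The change at early hatching (over controls of 9 a.m.) minus the change at late hatching (over controls of 5 p.m.) was positive at an unadjusted p under 0.05 for 6 of the 12 and negative for 0, beside 8% and 4.93% of all tested genes (12.9% either way), with a list median of 0.53 against 0.02 for all genes. Of all tested genes, 0 passed an adjusted p of 0.01 in this contrast by edgeR's quasi-likelihood test, with 1488 higher and 917 lower at an unadjusted p under 0.05, and DESeq2 called 5 genes without a symbol. In edgeR's quasi-likelihood test the 6 were egr2a (difference of changes 1.42, unadjusted p = 0.00196), plk2b (0.65, unadjusted p = 0.00198), nab2 (1.03, unadjusted p = 0.00248), npas4a (1.05, unadjusted p = 0.0118), fos (0.89, unadjusted p = 0.0403) and NR4A1 (1.52, unadjusted p = 0.0415), with adjusted p from 0.18 to 0.366. The zinc finger gene egr2a averaged 7.15 ± 2.46 CPM at early hatching against 5.27 ± 2.30 CPM in controls at 9 a.m., and 4.78 ± 1.18 CPM at late hatching against 9.40 ± 4.92 CPM in controls at 5 p.m. (SD, n = 5 each). The activity-dependent factor npas4a averaged 12.1 ± 2.87 CPM at early hatching against 12.4 ± 4.60 CPM in controls at 9 a.m., and 7.93 ± 1.08 CPM at late hatching against 16.8 ± 8.64 CPM in controls at 5 p.m. For fos the means were 15.4 ± 3.87 CPM at early hatching against 13.2 ± 3.94 CPM in controls at 9 a.m., and 9.34 ± 1.37 CPM at late hatching against 14.9 ± 8.32 CPM in controls at 5 p.m. On its own, late hatching had 1 of the 12 higher and 5 lower than controls of 5 p.m. (11.8% and 16.5% of all genes), and mid hatching 0 either way against controls of 1 p.m. by edgeR (6.73% and 7.14%). Levels spread widely among the controls of 5 p.m., in which control 95 was highest of the group for npas4a and fos, at 27.6 and 23.8 CPM. Of these 4 means, that of late hatching was the lowest for each of egr2a, npas4a and fos.

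**Figure D3:**
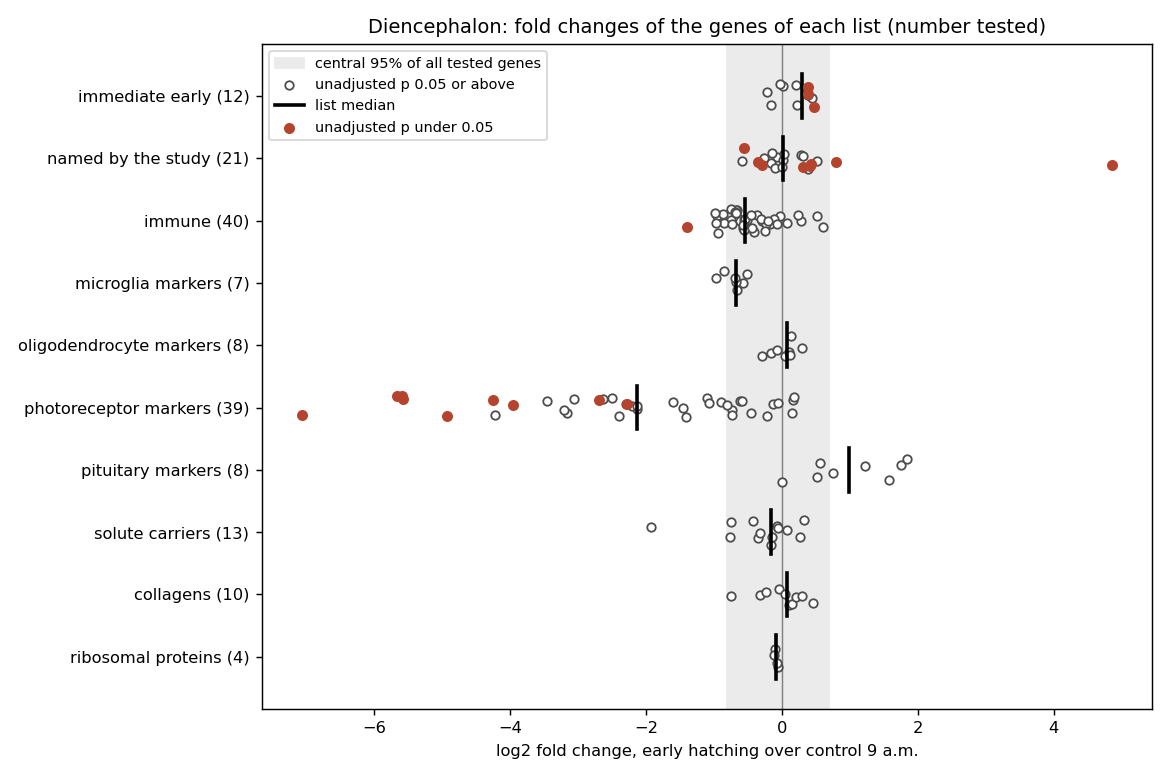
Log2 fold change, early hatching over control 9 a.m. (horizontal axis), of each tested gene of 10 lists in the diencephalon, with the number tested in parentheses, filled where the unadjusted p was under 0.05 and open where not. Black bars are list medians and the grey band holds the central 95% of all tested genes, so that most immediate early genes lie right of 0 (median 0.30) and most immune genes left of it (median −0.55).

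Of the genes that the study names, 21 of 34 symbols had an identifier, and these are not independent evidence of a direction, since the study chose them on these samples. At an unadjusted p under 0.05, 5 of the 21 were higher in early hatching fathers (bdnf, adcyap1a, ndufa7, klhdc8a and mylpfb) and 3 were lower (cpne3, sall3a and acaca), with a median log2 fold change of 0.02, beside 3.54% higher and 2.75% lower of all genes. The respiratory complex I subunit gene ndufa7 was 43.9, 45.6, 43.7, 37.4 and 34.7 CPM in early hatching fathers 13, 16, 29, 58 and 64, against 34.5, 35.7, 35.1, 30.5 and 29.1 CPM in controls 7, 39, 41, 69 and 74. Fathers 13, 16, 29 and 58 lay above all controls, and father 64 within their range. The log2 fold change of ndufa7 was 0.31 ± 0.10 (SE; unadjusted p = 0.00488, adjusted p = 0.734, edgeR). Against controls of its own hour ndufa7 gave 0.45 at nest, 0.54 at eggs, 0.21 at mid hatching and 0.55 at late hatching. Of these the late hatching value passed 0.01 (adjusted p = 0.00285, edgeR). In the telencephalon of the early hatching fathers and their controls it was 0.73, which passed (adjusted p = 0.000466, edgeR), and the difference between regions was −0.41 at an unadjusted p of 0.0154, or 0.00224 with the male as a block, which did not pass adjustment. A second respiratory chain gene, atp5s, had a log2 fold change of 0.18 (unadjusted p = 0.0831), and the other symbols of that list were unmatched.

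The kelch gene klhdc8a was 32.8, 37.2, 38.3, 30.1 and 36.1 CPM in early hatching fathers, against 38.4, 19.1, 20.7, 23.0 and 28.01 CPM in controls 7, 39, 41, 69 and 74. Control 7 alone was as high as the fathers, and the log2 fold change was 0.43 (unadjusted p = 0.0103). At nest, eggs, mid hatching and late hatching, each against its own controls, klhdc8a had log2 fold changes of 0.55, 0.68, 0.34 and 0.48. The muscle myosin light chain gene mylpfb had a fitted log2 fold change of 4.86, but it rested on 35 and 10 counts in early hatching males 29 and 58, with 1 count in male 13 and 0 in males 16 and 64, against 1 count in all 5 controls together. These counts are too few for a fold change to be read.

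Lower in early hatching fathers were cpne3, a calcium-dependent membrane-binding protein of the copine family, sall3a, a zinc finger transcription factor, and acaca, acetyl-CoA carboxylase, which makes malonyl-CoA for fatty acid synthesis. The level of acaca was 154.5, 155.5, 143.1, 124.9 and 152.3 CPM in early hatching fathers 13, 16, 29, 58 and 64, against 180.1, 158.5, 171.8, 217.8 and 163.6 CPM in controls 7, 39, 41, 69 and 74. The groups did not overlap, but fathers 13 and 16 lay within a few CPM of control 39, and the log2 fold change was −0.29 ± 0.11 (SE; unadjusted p = 0.0154, adjusted p = 0.760, edgeR). The gene cpne3 ranged from 35.2 to 40.9 CPM in early hatching fathers and from 40.6 to 54.3 CPM in controls, a log2 fold change of −0.35 (unadjusted p = 0.0111), with father 64 just above control 7. The gene sall3a ranged from 47.6 to 77.9 CPM in early hatching fathers and from 73.3 to 121.5 CPM in controls, a log2 fold change of −0.57 (unadjusted p = 0.0171), with father 58 inside the control range. At nest, eggs, mid hatching and late hatching, each against its own controls, acaca had log2 fold changes of −0.31, −0.40, 0.04 and −0.21. In the same order cpne3 had −0.49, −0.41, −0.40 and −0.36, and sall3a −0.75, −0.62, −0.22 and −0.28. Symbols such as cpne3, NR4A1, FAM46D and CCRN4L have several copies in the annotation, and reads that aligned to several places were not counted for any copy.

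Of the other 13 study genes none reached an unadjusted p under 0.05. Their log2 fold changes ran from −0.58 for crx, a photoreceptor transcription factor at 0.32 to 0.81 CPM in early hatching fathers and 0.38 to 1.56 CPM in controls, to 0.52 for nr5a1b, a pituitary and gonadal factor at 0.41 to 32.8 CPM in early hatching fathers and 0.13 to 26.8 CPM in controls. The glutamate receptor subunit gria3a had a log2 fold change of 0.02 (95% interval −0.25 to 0.28), the AMPA receptor partner cnih2 0.03 (−0.36 to 0.42) and protein kinase C alpha, prkca, −0.15 (−0.60 to 0.29). In the males at late hatching the last 2 were lower than in controls of 5 p.m. and passed the test, with log2 fold changes of −0.82 for cnih2 (adjusted p = 0.00804, edgeR) and −1.31 for prkca (adjusted p = 0.00138, edgeR). The change at early hatching minus that at late hatching was 0.85 for cnih2 (unadjusted p = 0.00369, adjusted p = 0.207) and 1.16 for prkca (unadjusted p = 0.000676, adjusted p = 0.165), which did not pass in edgeR. The remaining study genes were anxa11b (log2 fold change −0.08), spen (−0.17), b4galnt3b (0.28), MYH3 (0.30), mbnl3 (−0.10), cldn7a (0.00), sox19a (−0.26) and dusp5, given above.

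**Figure D4:**
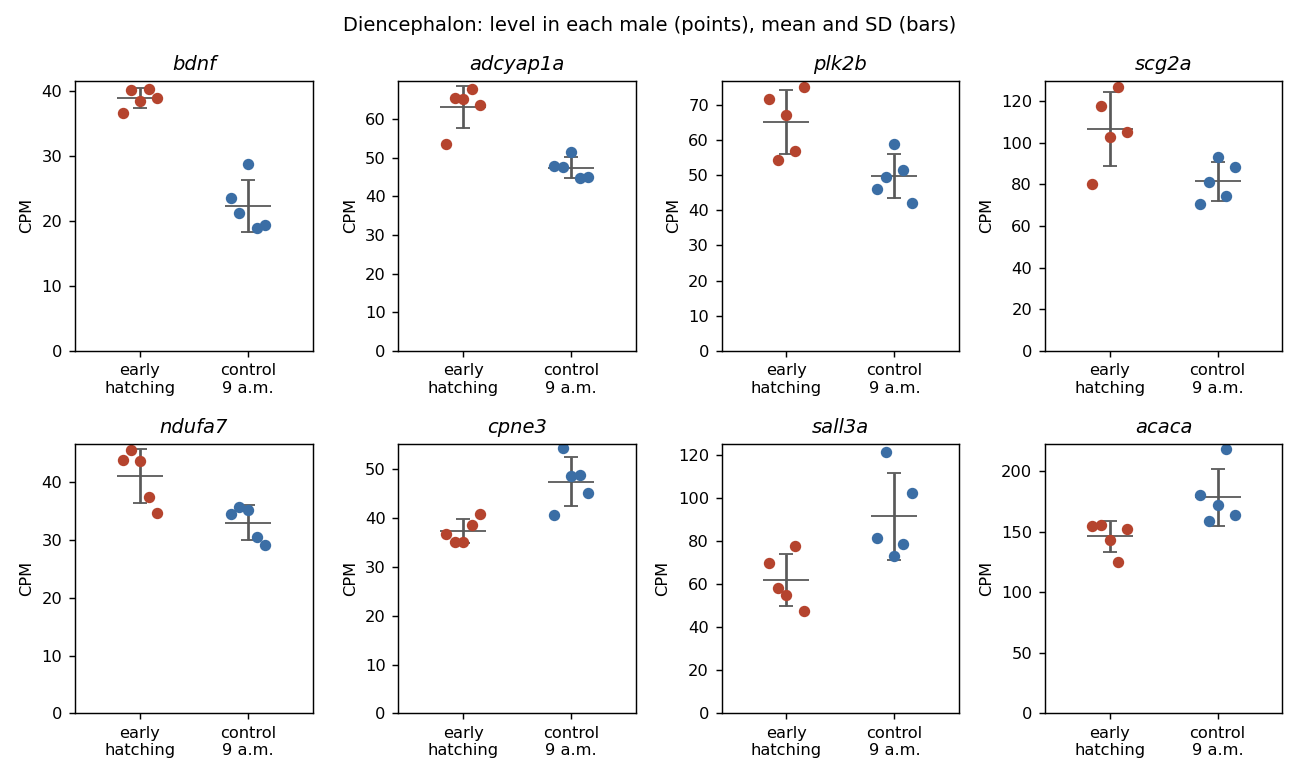
Level in CPM (vertical axis) of 8 genes in the diencephalon of each early hatching father and each control of 9 a.m. (points), with the mean and SD (bars; n = 5 males each). The groups do not overlap for bdnf, adcyap1a and acaca, and at least 1 male overlaps for the other 5 genes.

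By the rule for genes with a symbol, 7 of 652 genes had all 5 early hatching fathers above all 5 controls and 5 had all fathers below. These counts lie near the shares over all tested genes, 0.865% and 0.58%. Above the controls, besides bdnf and adcyap1a, were FAM46D, abhd5b, chn1, myo1ha and col4a6. The poly(A) polymerase family gene FAM46D was 29.6, 27.6, 28.4, 29.2 and 37.1 CPM in early hatching fathers, against 19.4, 19.3, 25.3, 19.4 and 18.5 CPM in controls, a log2 fold change of 0.58 ± 0.16 (SE; unadjusted p = 0.000749, adjusted p = 0.606, edgeR). Father 64 and control 41 were each high within their group. FAM46D was also higher at early hatching than in males with eggs, by 0.41 on the log2 scale (unadjusted p = 0.0118, adjusted p = 0.566, edgeR). This comparison reuses the 5 fathers whose high values selected the gene, so that it is not separate evidence. The lipase co-activator gene abhd5b ranged from 8.001 to 9.868 CPM in early hatching fathers and from 4.99 to 6.83 CPM in controls, a log2 fold change of 0.55 (unadjusted p = 0.00188). Against the same 5 controls abhd5b was higher by more at nest, 0.90 (adjusted p = 0.00625, edgeR), and at eggs, 0.85 (adjusted p = 0.0194, edgeR). Between early hatching and nest it differed by −0.36 (unadjusted p = 0.0324, edgeR). The Rac-inactivating gene chn1, chimerin 1, which is expressed in neurons, ranged from 326.1 to 400.7 CPM in early hatching fathers and from 248.8 to 321.2 CPM in controls, a log2 fold change of 0.36 (unadjusted p = 0.0038). In the telencephalon chn1 had a log2 fold change of 0.69 that passed (adjusted p = 0.00487, edgeR), and the difference between regions was −0.34 (unadjusted p = 0.0712). The unconventional myosin gene myo1ha (0.57, unadjusted p = 0.0183) and the basement membrane collagen gene col4a6 (0.29, unadjusted p = 0.196) were the other 2. Against the same 5 controls, log2 fold changes at nest and at eggs were 0.39 and 0.16 for FAM46D and 0.34 and 0.34 for chn1. For myo1ha they were 0.17 and 0.80, and for col4a6 0.76 and 0.32. Between early hatching and nest col4a6 differed by −0.47 (unadjusted p = 0.0409, edgeR).

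Below the controls, besides acaca, were gpsm2l, DNASE2B, opn1sw2 and abca4b. The spindle orientation gene gpsm2l ranged from 5.34 to 10.61 CPM in early hatching fathers and from 10.62 to 22.2 CPM in controls, a log2 fold change of −0.89 (unadjusted p = 0.019). The acid DNase gene DNASE2B ranged from 3.66 to 11.05 CPM in early hatching fathers and from 12.3 to 28.7 CPM in controls, a log2 fold change of −1.08 (unadjusted p = 0.0261), lowest in father 64 and highest in control 39, males that were also lowest and highest in summed immune genes, given further on. The retinoid transporter gene abca4b ranged from 9.94 to 10.7 CPM in early hatching fathers and from 10.9 to 15.7 CPM in controls, a log2 fold change of −0.32 (unadjusted p = 0.23). The cone opsin gene opn1sw2 ranged from 0.0621 to 0.10 CPM in early hatching fathers and from 0.132 to 2.62 CPM in controls, with an unadjusted p of 0.0703. It had 1 to 3 counts in each father, against 48, 5, 6, 20 and 3 counts in controls 7, 39, 41, 69 and 74. Father 64 and control 74 both had 3 counts and were set apart by library size alone, and controls 7 and 69 carried most of the control counts.

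Of genes without a symbol, the 2 non-overlapping ones with the lowest p in each direction were ENSGACG00000000434 and ENSGACG00000010627 above the controls, and ENSGACG00000001934 and ENSGACG00000011457 below them. ENSGACG00000000434 was 55.4, 58.7, 57.3, 54.3 and 51.1 CPM in early hatching fathers, against 41.2, 43.9, 40.9, 45.7 and 37.4 CPM in controls, a log2 fold change of 0.40 ± 0.08 (SE; unadjusted p = 2.8e-05, adjusted p = 0.173, edgeR). Its difference was small but the males of each group lay close together, and over 21 alternatives its unadjusted p stayed between 3.1e-06 and 0.000554. ENSGACG00000010627 had a log2 fold change of 0.75 (adjusted p = 0.287, edgeR), ENSGACG00000001934 of −0.47 (adjusted p = 0.332) and ENSGACG00000011457 of −0.43 (adjusted p = 0.452). ENSGACG00000011457 was also lower at early hatching than in males with eggs, by −0.43 (unadjusted p = 0.000299, adjusted p = 0.549, edgeR). Against males with a nest it was lower by −0.32 (unadjusted p = 0.00532, adjusted p = 0.850, edgeR). These comparisons reuse the 5 fathers whose low values selected the gene, so that they are not separate evidence.

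The other 3 genes that a likelihood ratio test or DESeq2 called were chosen for description after their values were seen. ENSGACG00000014008 was 0.272, 0.621, 1.00, 0.412 and 1.09 CPM in early hatching fathers, against 0.763, 0.574, 37.8, 30.6 and 0.529 CPM in controls 7, 39, 41, 69 and 74. Only controls 41 and 69 were high, at 37.5 and 33.3 CPM in their telencephalon too, and the other 3 controls lay in the range of the fathers. ENSGACG00000018668 had 0 counts in all 5 early hatching fathers, against 2, 126, 179, 0 and 1 counts in controls 7, 39, 41, 69 and 74. With a floor of 3 counts over the 5 fathers it was at least 112-fold lower in early hatching fathers, but controls 39 and 41 carried nearly all of its counts. It was also high in single males of other diencephalon groups, at 7.21 CPM in 1 male with a nest and 17.9 CPM in 1 control of 5 p.m., and at 0 in all males at mid and late hatching. The ultraviolet cone opsin gene opn1sw1 had 0 counts in all 5 early hatching fathers, against 46, 0, 0, 24 and 2 counts in controls 7, 39, 41, 69 and 74, at least 26.2-fold lower by the same floor, and carried by controls 7 and 69.

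The photoreceptor genes as a whole were highest in the same males 7 and 69. Of 39 tested photoreceptor markers, 9 were lower and 0 higher in early hatching fathers at an unadjusted p under 0.05, beside 2.75% and 3.54% of all genes, with a median log2 fold change of −2.14. These markers had symbols only through the study's gene tables, so that all genes are not a matched background. Controls 7 and 69 were the highest 2 of the 5 controls for 32 of the 39. The summed level of 43 markers was 37.4, 37.4, 50.9, 57.4 and 39.8 CPM in early hatching fathers 13, 16, 29, 58 and 64, against 219.2, 46.8, 55.9, 130.6 and 26.95 CPM in controls 7, 39, 41, 69 and 74. The means did not differ beyond the spread between males in a two-sided exact permutation test (p = 0.262, n = 5 each). Without controls 7 and 69, 0 of the 39 were lower or higher at an unadjusted p under 0.05 (edgeR) and the median was −0.06. These 2 controls were left out after their high levels had been seen, so that the smaller fall without them follows in part from that choice. Without fathers 29 and 64 the count was 0 too, with a median of −2.31. The arrestin gene arr3a, for example, was 0 to 0.412 CPM in early hatching fathers, against 9.53 and 4.099 CPM in controls 7 and 69 and 0.133 to 0.44 CPM in the other controls. The rod transducin gene gnat1 was 0.559 to 2.78 CPM in early hatching fathers, against 25.9 and 12.0 CPM in controls 7 and 69. The diencephalon bears the pineal organ and the optic nerves, and which tissue gave these reads was not tested.

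Pituitary hormone genes differed widely between males within each group. The summed level of 8 markers was 18.9, 2606, 69.6, 2438 and 3468 CPM in early hatching fathers 13, 16, 29, 58 and 64, against 2306, 19.6, 94.4, 661.1 and 905.3 CPM in controls 7, 39, 41, 69 and 74 (p = 0.310, two-sided exact permutation test, n = 5 each). Fathers 16, 58 and 64 were the highest 3 of the fathers for 8 of 8 markers, and controls 7, 69 and 74 of the controls for 7 of 8. Growth hormone, gh1, was 4.54, 462.4, 13.8, 626.0 and 833.4 CPM in early hatching fathers, against 256.7, 1.77, 13.6, 71.6 and 198.1 CPM in controls. None of the 8 was at an unadjusted p under 0.05 in either direction, although their median log2 fold change was 0.99, or 2.41 without controls 7 and 69. The melanocortin precursor pomca had a log2 fold change of 1.58 (unadjusted p = 0.368) and the glycoprotein alpha subunit gene cga of 0.75 (unadjusted p = 0.663). With pituitary and photoreceptor marker scores as covariates, bdnf kept a log2 fold change in the range given above, and 0 genes passed 0.01 by edgeR's quasi-likelihood test, with 1336 at an unadjusted p under 0.05.

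Immune genes were low in 2 of the 5 early hatching fathers. Of 40 tested immune genes, 35 had a negative log2 fold change, with a median of −0.55, but only 1, an immunoproteasome copy labelled psmb9a (2 of 5), was lower at an unadjusted p under 0.05 in edgeR (log2 fold change −1.39, unadjusted p = 0.0481), and 0 were higher, beside 2.75% lower and 3.54% higher of all genes. The 1 lower gene of 40 is close to the share over all genes. Of all 18609 genes, 9315 had a negative log2 fold change, a smaller share than the 35 of 40. The 40 had symbols only through the study's gene tables, so that all tested genes are not a matched background for either count. The 40 are not independent of each other, as the same males were low for most of them. Early hatching males 29 and 64 were the lowest 2 fathers for 33 of the 40, and control 39 was the highest control for 29. The summed level of the 40 genes was 1357, 1405, 603.7, 1573 and 462.4 CPM in early hatching fathers 13, 16, 29, 58 and 64, against 971.6, 2169, 1232, 1373 and 1840 CPM in controls 7, 39, 41, 69 and 74 (p = 0.190, two-sided exact permutation test, n = 5 each). Without fathers 29 and 64 the median log2 fold change was −0.055, against −0.74 without controls 7 and 69, and in neither case were any of the 40 at that p in either direction (0 of 40, edgeR). Fathers 29 and 64 were left out after their low levels had been seen, so that the smaller fall without them follows in part from that choice. Low summed levels of the 40 genes also occurred in other diencephalon groups. The lowest male was at 455.3 CPM with a nest, 508.4 CPM with eggs, 438.3 CPM at mid hatching and 952.7 CPM at late hatching. Among controls the lowest was at 647.4 CPM at 1 p.m. and 464.6 CPM at 5 p.m. The 7 microglia and macrophage markers were also lowest in males 29 and 64. Their summed level was 527.1, 487.3, 194.9, 498.1 and 94.3 CPM in early hatching fathers, against 356.9, 907.4, 423.8, 533.4 and 663.1 CPM in controls (p = 0.151, two-sided exact permutation test, n = 5 each), and these males were the lowest 2 fathers for 7 of 7. The macrophage pore-forming gene mpeg1 was 48.4, 49.3, 11.2, 52.9 and 4.44 CPM in early hatching fathers, against 30.5, 126.8, 48.2, 67.4 and 51.2 CPM in controls. Complement C1q chain c1qc was 112.7, 91.9, 40.7, 85.1 and 12.9 CPM in early hatching fathers, against 50.7, 118.6, 88.7, 124.4 and 104.9 CPM in controls. The interferon-induced gene rsad2, of the same immune list, was highest in father 64 at 26.6 CPM, with a log2 fold change of 0.28 (unadjusted p = 0.196).

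**Figure D5:**
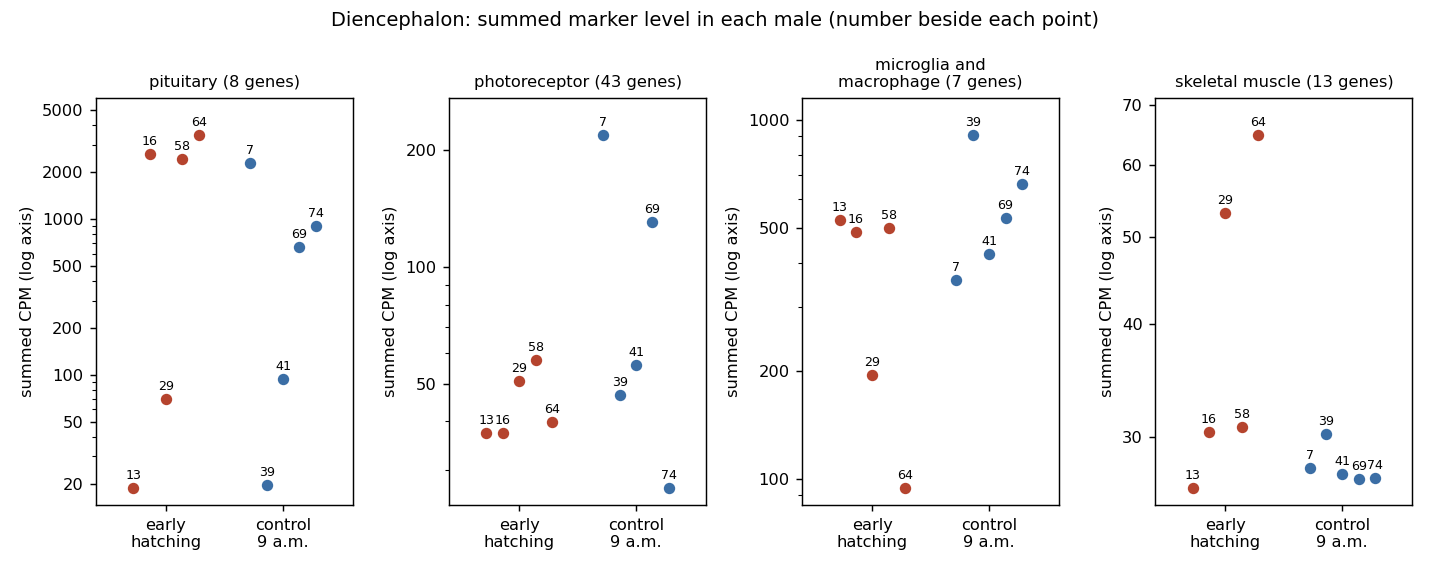
Summed CPM (vertical log axis) of pituitary, photoreceptor, microglia and macrophage, and skeletal muscle marker genes in the diencephalon of each early hatching father and each control of 9 a.m., with the number of the male beside its point. Fathers 29 and 64 are lowest in microglia markers, controls 7 and 69 highest in photoreceptor markers, and pituitary markers span from 18.9 to 3468 CPM among the early hatching fathers.

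Summed skeletal muscle markers were also highest in males 29 and 64, although these were the highest 2 fathers for only 4 of the 13 markers. The summed level of 13 muscle markers was 26.4, 30.4, 53.1, 30.8 and 64.8 CPM in early hatching fathers 13, 16, 29, 58 and 64, against 27.0 to 30.3 CPM in controls (p = 0.111, two-sided exact permutation test, n = 5 each). The muscle creatine kinase gene ckmb was 0.227, 0.372, 5.16, 0.412 and 12.9 CPM in early hatching fathers, against 0.44 to 3.18 CPM in controls. The part of dissection or of any of these tissues in the differences of other genes was not tested beyond the settings above. Among 12 such measures, which included the percent of aligned reads outside genes (48.98 ± 1.11 in early hatching fathers and 47.74 ± 2.09 in controls, SD, n = 5 each), none passed adjustment, with the lowest unadjusted exact permutation p of 0.0476 for sox2 as the radial glia marker (adjusted p = 0.381). The smallest p that this two-sided exact test can give for 5 against 5 males is 0.00794. After adjustment over 12 measures, 1 measure alone could not pass 0.05 even if its groups did not overlap. That none passed therefore does not show that the tissues were alike.

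Other lists were short, and most gave 0 genes at an unadjusted p under 0.05, beside 6.29% of all genes in either direction. Lists this short can give 0 at that share, so that 0 does not show these genes to be unchanged. Oligodendrocyte markers gave 0 of 8 at an unadjusted p under 0.05 and a median log2 fold change of 0.07, with the myelin gene mbpb at 294.4 to 486.9 CPM in early hatching fathers and 284.8 to 343.8 CPM in controls. Of 4 heat shock and stress genes 0 were at that p, and the heme oxygenase gene hmox1a had the lowest log2 fold change of them, −0.98 (unadjusted p = 0.0874). Of 13 solute carriers 0 were at that p (median −0.17), of 10 collagens 0 (median 0.07) and of 4 ribosomal protein genes 0 (median −0.09). The one clock-related gene matched, CCRN4L, nocturnin, was 11.4 to 15.3 CPM in early hatching fathers and 9.18 to 13.3 CPM in controls, a log2 fold change of 0.29 (unadjusted p = 0.0236). Against controls of its own hour CCRN4L had 0.41 at nest, 0.28 at eggs, 0.29 at mid hatching and 0.33 at late hatching. Each of these was at an unadjusted p under 0.05 (edgeR).

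Set directly against the stages before it, early hatching gave no gene past the threshold in edgeR's quasi-likelihood test. Against males with eggs, 0 of 18609 genes passed 0.01 (lowest adjusted p = 0.549), with 704 (3.78%) higher and 778 (4.18%) lower at an unadjusted p under 0.05 (7.96% in all), and DESeq2 called 1, opn1sw1. Of 39 photoreceptor markers, 33 were lower than in males with eggs and 0 higher at an unadjusted p under 0.05 (edgeR), with a median log2 fold change of −3.38. Photoreceptor markers summed to 37.4 to 57.4 CPM at early hatching. In males with eggs they summed to 1021 CPM in 1 male and to 41.9 to 129.2 CPM in the others. The part of that male in the counts against eggs was not tested. Against males with a nest, 0 passed (lowest adjusted p = 0.0945), with 466 (2.5%) higher and 597 (3.21%) lower (5.71% in all), and DESeq2 called 4, among them opn1sw1 and ENSGACG00000018668. Of the 21 study genes, 1 was higher and 0 lower than in males with a nest at an unadjusted p under 0.05 (edgeR). Against males with eggs 1 was higher and 2 lower. The higher gene was the annexin anxa11b, by 0.54 against nest (unadjusted p = 0.000676, adjusted p = 0.709, edgeR). Against eggs anxa11b was higher by 0.34 (unadjusted p = 0.0243, adjusted p = 0.589), while against controls it differed by −0.08. Lower than with eggs were ndufa7 (−0.22, unadjusted p = 0.0403) and crx (−1.77, unadjusted p = 0.00666). Against their shared controls, anxa11b had log2 fold changes of −0.61 at nest and −0.41 at eggs.

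Each stage was also set against its controls by count of genes. At an adjusted p of 0.01 in edgeR's quasi-likelihood test, 10 genes (0.0537%) passed at nest, 6 (0.0322%) at eggs and 0 (0%) at early hatching, each against the same 5 controls, and 0 at mid hatching and 524 (2.82%) at late hatching against controls of their own hour. At an unadjusted p under 0.05 these counts were 2883 (15.5%), 3222 (17.3%), 1170 (6.29%), 2581 (13.9%) and 5264 (28.3%) in the same order. That the number of genes differed between stages was not tested. The telencephalon of the same early hatching fathers against controls gave 9 of 18958 genes (0.0475%) at 0.01 and 2331 (12.3%) at an unadjusted p under 0.05 (6.44% higher and 5.86% lower). In that contrast 41 of 43 photoreceptor markers (median log2 fold change −5.42) and 7 of 8 pituitary markers (median −6.06) were lower at that p, and 0 of either list were higher. The part of single control males in these counts was not tested. The pituitary marker prl was not among the 7 lower at that p (log2 fold change −3.95, unadjusted p = 0.0553, edgeR). Telencephalon levels of those 7 in single males are not given here. Its own level, that of prl, was 2938 and 452 CPM in the telencephalon of controls 39 and 41, and 0.861 to 1.88 CPM in the other controls. In fathers 29 and 64 it was 33.0 and 186.5 CPM, and at most 0.095 CPM in the other fathers. In the difference between regions, fitted without the male as a block, 12 of 43 photoreceptor and 7 of 8 pituitary markers were higher at that p and 0 lower. With the male as a block, the difference for the pituitary marker nr5a1b went from 6.35 (unadjusted p = 0.00991, edgeR) to 2.89 (unadjusted p = 0.345, edgeR). That for prl went from 3.95 to 0.32. Counts of these markers with the block are not given here. The part of these tissues in other genes' differences between regions was not tested. The change in diencephalon minus the change in telencephalon passed 0.01 for 0 of 18958 genes (lowest adjusted p = 0.171), with 410 (2.16%) higher and 167 (0.881%) lower at an unadjusted p under 0.05 (3.04% in all). With the male as a block, 0 passed (lowest adjusted p = 0.63), with 551 higher and 407 lower at an unadjusted p under 0.05, 958 of 18958 in all. That number is larger and more even than without the block, but it is near what chance gives at that p.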

How the data were processed

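The authors deposited whole-number counts of reads per gene for each library, made by aligning single-end reads with TopHat2 2.0.8 to the repeat masked stickleback genome and counting with HTSeq 0.6.1, with reads in several genes left out. Groups and male numbers came from the labels. The count files hold Ensembl identifiers only, and symbols came from the study's supplementary tables. Rows for reads outside genes were left out of library sizes, and they held 44.5% to 50.7% of uniquely aligned reads in the 10 libraries compared.

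All 39 diencephalon libraries in 8 groups were fitted in edgeR 4.0.16 (R 4.3.3) with TMM and default quasi-likelihood settings, keeping genes that reached 0.5 CPM in 5 or more libraries. P-values were adjusted by Benjamini-Hochberg over all genes and called at 0.01. The difference between regions used all 79 libraries in 16 groups. Male numbers pair the regions, since both libraries come from 1 animal, and the deviations of such pairs correlated at 0.365 to 0.575. Intervals are 95%. DESeq2 1.42.0, the likelihood ratio test, RLE scaling, other filters, subsets, covariates and leaving out each male were alternatives.

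Genes named are the matched members of the study's named genes and of the care candidates, then genes with a symbol whose groups did not overlap (at most 15 in each direction), genes past an adjusted p of 0.05 (none), and at most 2 without a symbol in each direction; other list members illustrate their list. Members and lists were chosen with earlier results of these data known. The scripts were tested on simulated counts.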

Additional observations from a re-analysis of the deposited data

Results flagged for a closer look

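In groups of 5 males, a value was noted where its gap to the nearest male exceeded 0.71 of the group's range, which chance gives in about 1 of 20 groups, and 100 groups were examined. Among early hatching fathers, adcyap1a was lowest at 53.7 CPM (next 63.8), cldn7a lowest at 12.2 CPM (next 17.6), sox19a lowest at 28.1 CPM (next 38.6) and opn1sw2 lowest at 0.0621 CPM (next 0.0907). FAM46D (1 of 2) was highest at 37.1 CPM in an early hatching father (next 29.6) and at 25.3 CPM in a control (next 19.4). The muscle gene mylpfb was highest at 1.75 CPM in an early hatching father (next 0.458) and at 0.044 CPM in a control, where the others were at 0. ENSGACG00000010627 was highest at 16.8 CPM in a control (next 12.2). Summed connective tissue markers were highest at 71.2 CPM in an early hatching father (next 66.4), summed lens markers at 2.56 CPM in an early hatching father (next 0.50), and summed skeletal muscle markers at 30.3 CPM in a control (next 27.7).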

How the results depend on the processing

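The number of genes past 0.01 between early hatching fathers and controls was 0 in edgeR's quasi-likelihood test under every planned scaling, filter, covariate and subset of males, and without each male in turn, but 2 with the likelihood ratio test and 4 with DESeq2. DESeq2 also called 1 gene against eggs, 4 against nest and 5 for early against late change. Genes at an unadjusted p under 0.05 numbered 1170, 933 to 1390 without each male, and 1658 in a fit of the 10 libraries alone. With the replicate block of the male, 0 genes differed between regions at 0.01, and 958 in place of 577 did at an unadjusted p under 0.05. Of 38 named genes, 30 kept their direction under 21 alternatives. The log2 fold change passed 0.01 for bdnf with the likelihood ratio test (0.80) and DESeq2 (0.80), for ENSGACG00000014008 with the same (−4.35 and −4.37), and for opn1sw1 (−21.70) and ENSGACG00000018668 (−23.63) with DESeq2, where the last 2 rest on a group at 0. The 8 genes that turned sign had adjusted p of 0.8995 or more as reported, and the cause was not tested. For prl it was −0.0031 with RLE scaling, −0.0030 with DESeq2, −0.0066 in a fit of the 10 libraries, −0.11 with the share of reads outside genes, −0.078 with marker scores, −0.012 with males 29, 58 and 64, and −0.41 to 0.97 without each male. For cldn7a these were −0.00092, −0.00070, −0.0075 and, with marker scores, −0.11, then −0.00056 with no filter, −0.18 with males 13 and 16, −0.33 without controls 7 and 69, −0.11 without males 29 and 64, and −0.13 to 0.25 without each male. With males 13 and 16 only, anxa11b was 0.043, gria3a −0.023 and cnih2 −0.10. With the share of reads outside genes anxa11b was 0.034. With marker scores nr5a1b was −0.45, crx 0.12 and cnih2 −0.025. Without controls 7 and 69, chosen after seeing the data, gria3a was −0.044 and cnih2 −0.085, and without males 29 and 64, likewise, −0.063 and −0.14. Without each male, mbnl3 ranged from −0.22 to 0.0051, gria3a from −0.056 to 0.058 and cnih2 from −0.089 to 0.095. With counts of 0 in all early hatching fathers, opn1sw1 and ENSGACG00000018668 allow only a lower bound of the fold in pooled counts, which leaves out the spread between males.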
